A study of Mus musculus and Rattus norvegicus with 53 samples.

Results

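The comparison described here sets dSCs, the Schwann cells (SCs) of the distal nerve stump, 10 days after transection against iSCs, the SCs of intact nerve, with each library made from a single mouse nerve. Its members are the 8 libraries that the labels name as day-10 distal stump (3 libraries, numbered 0, 1 and 3) or intact nerve (5 libraries, numbered 0, 1, 3, 4 and 5), out of 53 libraries in the series and 35 from single nerves. Day 10 is the latest distal time point of the series. All animals, intact controls included, carried Cre under the control of a promoter active in SCs and a Rosa26 tdTomato reporter, were of both sexes and were 6 to 8 weeks old. The sciatic nerve was cut through on one side. Intact nerves were the uncut contralateral nerves of operated mice, so they were not nerves of unoperated animals. The labels give all 8 libraries the genotype tdTomato+ and a different animal identifier each, although the source names use mouse numbers 0, 1 and 3 in both groups. Cells were sorted by tdTomato fluorescence, which reports past activity of that promoter, and any other cell that carried the label or entered the gate contributes to the same bulk count.

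Schwann cells wrap and insulate the axons of peripheral nerves. When an axon is cut, the part beyond the cut degenerates, and the SCs left behind switch off myelin synthesis, divide, help to break down their own myelin, secrete growth factors and cytokines that attract macrophages, and lay down matrix along which axons can regrow. Jun is a transcription factor that drives this repair state, whereas Egr2 and Sox10 drive myelination. The comparison asks how far the sorted cells of the distal stump differ from those of intact nerve 10 days after transection.

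Gene counts summed to 9595680 to 15684905 in the day-10 libraries and to 9240883 to 18429026 in the intact libraries. Levels are given as CPM, each gene's count relative to the library's total gene count, after scaling by the TMM factors of edgeR. Intact libraries 0 and 1 stood apart. They had 10572 and 10042 genes with at least 1 read, against 14045 to 15060 in the other intact libraries and 13819 to 14180 at day 10, and their 10 most abundant genes took 39.8% and 41.9% of the reads, against 6.499% to 12.5% in the other 6 libraries. Correlations of log2 CPM across genes, which are not independent replicates, were 0.279 to 0.499 between these 2 and the other intact libraries and 0.769 to 0.874 among intact libraries 3, 4 and 5. No pair of the 8 libraries agreed within sampling noise, as chi-square per degree of freedom was 116 or more. Of the 57 genes called below, 19 were also called without these 2 libraries, and values without them are given beside the results. Fewer cells of a type and less RNA per cell cannot be told apart in such bulk libraries.

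The 8 SC markers on the list used here, among them Sox10, S100b, Erbb3, Cdh19, Foxd3 and Gpr126, were all detected in all 3 day-10 libraries. Their summed level was 963 to 1255 CPM at day 10 and 1326 to 4808 CPM in intact nerve. Markers of other cells were also present in the sorted material. At day 10 the fibroblast and the macrophage markers each summed to more CPM than the SC markers in every library. Sums over different genes do not give shares of cells. Which of the sorted cells carried the differences described below was not tested. The 16 macrophage markers summed to 3977, 7864 and 7666 CPM in day-10 libraries 0, 1 and 3 and to 343 to 1482 CPM in intact libraries, and none was at 0 in all libraries of a group. The 10 fibroblast markers summed to 34550 to 38660 CPM at day 10 and 23850 to 32050 CPM in intact nerve, with 5 of 10 higher on average at day 10 and 0 called. The 10 endothelial markers summed to 905 to 2495 CPM at day 10 and 1920 to 5881 CPM in intact nerve, and all 10 were lower on average at day 10. The 8 mural markers gave overlapping sums of 1095 to 2181 and 937 to 4497 CPM, T cell markers at most 11.8 CPM, neutrophil and mast cell markers at most 13.4 CPM at day 10 and 558 CPM in intact nerve, and muscle, fat and red cell markers at most 63.2 CPM.

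**Figure D1:**
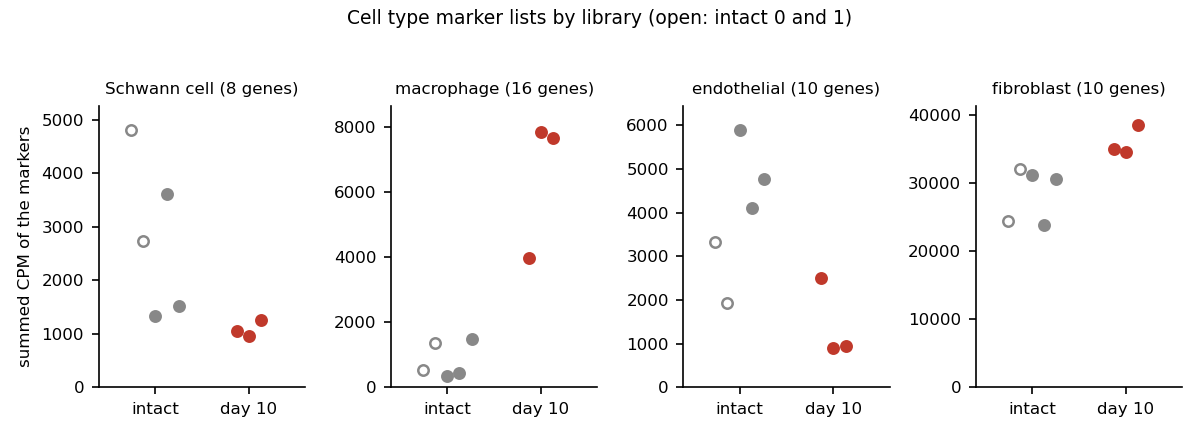
Summed CPM (vertical axis, linear, from 0) of 4 marker lists in each library, with intact libraries in grey, intact 0 and 1 open, and day-10 libraries in red. The macrophage sums at day 10, 3977 to 7864 CPM, lie above all intact sums, and the SC sums at day 10, 963 to 1255 CPM, lie below them.

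At day 10, the called genes included 3 myelin genes, which were lower than in intact nerve, and 4 matrix genes, 1 matrix receptor, 2 trophic factor or receptor genes and 4 macrophage markers, which were higher. In a fit of all 35 single-nerve libraries, 57 of 7171 genes passed an adjusted p of 0.05 (0.795% of genes tested), 45 higher at day 10 (0.628%) and 12 lower (0.167%). The 3 day-10 libraries lay entirely above the 5 intact libraries for 42 of these genes and entirely below for 10, and 5 overlapped. Of all 7171 genes tested, 345 (4.81%) lay entirely above and 205 (2.86%) entirely below, which is the background for each statement on overlap that follows. The median log2 fold change of all genes tested was -0.08. At an unadjusted p under 0.05 there were 335 higher and 344 lower genes. A gene entered this fit only if it had enough reads in most of the 35 libraries, of which 5 are intact. Genes near 0 in intact nerve could therefore enter through injured nerve, whereas genes near 0 in most injured libraries could not. The excess of 45 higher over 12 lower calls is thus not separate from this limit on counts. The number of calls depended on the fit. It was 48 with the size factors of DESeq2, 169 with DESeq2 (94 higher, 75 lower), 508 with limma voom and weights per library, and 24 (20 higher, 4 lower) without intact libraries 0 and 1. A fit of the 8 libraries alone called 0 genes, with 390 at an unadjusted p under 0.05. Without day-10 library 0, 1 or 3 the count was 22, 14 and 14, and without intact library 4 it was 24. All 57 genes kept their sign in all 18 alternative fits. In 17 of those 18, all but the fit of the 8 libraries alone, 8 genes were called: Slc37a2, Tnc, Fbn2, Ctss, Lyz2, Igf1 and Cd44, which were higher at day 10, and Pmp22, which was lower.

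**Figure D2:**
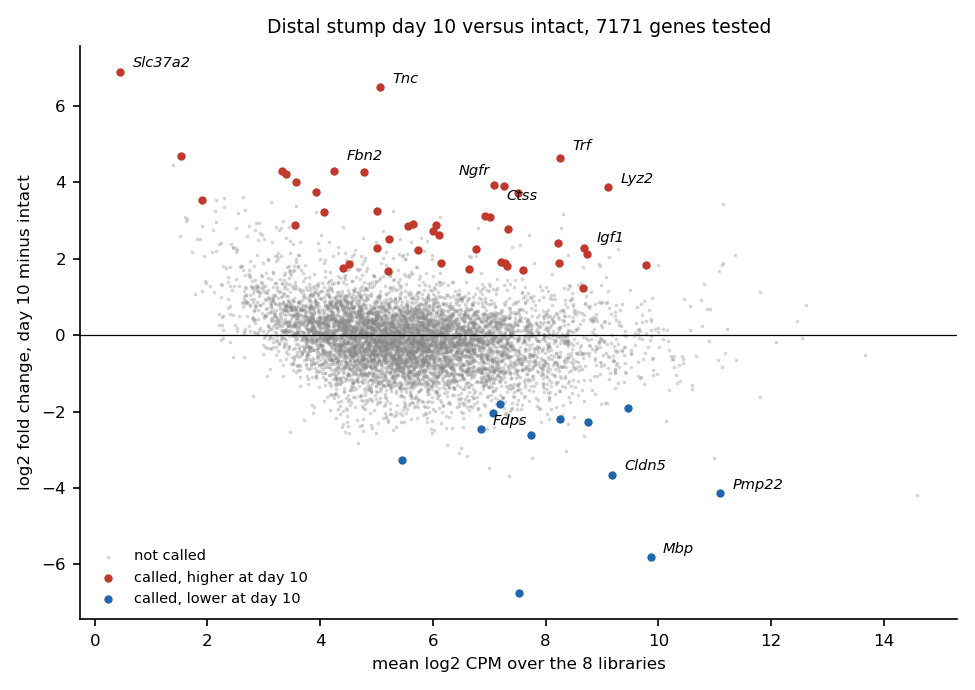
Mean log2 CPM over the 8 libraries (horizontal) against log2 fold change, day 10 minus intact (vertical), for 7171 genes. The 45 genes called higher are red, the 12 called lower are blue, and the labelled genes Mbp and Pmp22 lie far below 0, at -5.81 and -4.13.

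Genes with few reads were tested in a broader fit of 15519 genes that used edgeR's own count filter. From it only genes outside the first fit are described, apart from a median over the myelin list. This fit called 55 genes (0.354%), 50 higher (0.322%) and 5 lower (0.0322%), of which 38 had also been called in the first fit and 17 had not been tested there. All 17 were higher at day 10. They were Rbm47, Tlr13, Slitrk6, Itgam, Runx2, Aoah, Sema4f, Cxcl5, Gria1, Zfat, Bub1, Mcoln2, Saa1, Il21r, B430306N03Rik, Cd79b and Btc, and Tlr13 and Aoah were at 0 in all intact libraries. Genes near 0 in intact nerve can pass this filter only through libraries of injured nerve. The shared direction of these genes is therefore not a separate result. The broader fit called 17 genes when intact libraries 0 and 1 were left out.

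RefSeq promoter windows (GRCm38.p6) were found for 43 of the 57 called genes, and those of Pmp22 and Cldn5, which were lower, and of Tnc, Slc37a2 and Ngfr, which were higher, are shown as the sequence next to the start of transcription of genes that moved furthest. Each is the 250 bases before the start, 5′ to 3′ on the strand of the gene, and for Pmp22 (4 starts) and Tnc (2 starts) the start farthest upstream was taken. Capitals mark matches, on either strand, to the letters of 6 motifs. These were GCGNGGGCG for EGR factors, TGANTCA for AP-1, the Jun dimer, and ACAANG for SOX factors. The others were the CCAAT box, the TATA box spelled TATAAA, and the GC box spelled GGGCGG, and matches can overlap.
Pmp22, chr11:63128732-63128981, plus strand: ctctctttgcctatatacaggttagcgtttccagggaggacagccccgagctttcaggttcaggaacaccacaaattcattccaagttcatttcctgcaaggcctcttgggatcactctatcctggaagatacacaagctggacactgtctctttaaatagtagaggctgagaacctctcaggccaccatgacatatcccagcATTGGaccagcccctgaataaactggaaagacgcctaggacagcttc
Cldn5, chr16:18776597-18776846, plus strand: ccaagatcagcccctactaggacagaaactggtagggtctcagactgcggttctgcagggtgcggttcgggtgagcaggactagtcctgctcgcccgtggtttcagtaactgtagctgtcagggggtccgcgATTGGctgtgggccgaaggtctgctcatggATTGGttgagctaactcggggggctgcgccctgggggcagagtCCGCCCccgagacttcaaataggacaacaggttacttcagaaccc
Tnc, chr4:64047016-64047265, minus strand: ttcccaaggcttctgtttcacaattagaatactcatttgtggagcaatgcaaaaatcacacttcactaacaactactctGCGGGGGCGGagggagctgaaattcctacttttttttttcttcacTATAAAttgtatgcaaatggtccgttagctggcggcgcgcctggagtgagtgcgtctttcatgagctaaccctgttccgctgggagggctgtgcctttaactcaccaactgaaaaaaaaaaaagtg
Slc37a2, chr9:37255739-37255988, minus strand: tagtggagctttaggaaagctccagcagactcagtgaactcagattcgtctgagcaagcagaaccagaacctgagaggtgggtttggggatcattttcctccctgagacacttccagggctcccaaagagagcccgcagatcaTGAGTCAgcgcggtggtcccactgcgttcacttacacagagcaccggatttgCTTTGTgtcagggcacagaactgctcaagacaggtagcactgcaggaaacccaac
Ngfr, chr11:95587699-95587948, minus strand: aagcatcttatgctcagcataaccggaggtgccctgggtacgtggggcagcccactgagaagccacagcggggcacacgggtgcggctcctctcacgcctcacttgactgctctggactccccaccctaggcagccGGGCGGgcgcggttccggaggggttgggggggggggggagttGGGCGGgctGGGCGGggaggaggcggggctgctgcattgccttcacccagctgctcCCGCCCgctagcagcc

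Of all 32851 windows of the same length, 4.70% held the EGR letters, 6.75% the AP-1 letters, 36.3% the SOX letters, 33.8% the CCAAT box, 12.4% the TATA box and 32.7% the GC box. The Pmp22 window held 1 CCAAT match, on the opposite strand, and the Cldn5 window 2 CCAAT matches and 1 GC box. In the Tnc window the EGR match and a GC box overlap, ahead of 1 TATA box. The Slc37a2 window held 1 AP-1 and 1 SOX match and the Ngfr window 4 GC boxes. These are matches of letters and not tests of binding.

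Genes of the myelin membrane held the largest decreases. Mbp, which encodes the basic protein that compacts the inner faces of the myelin membrane, was at 9413, 4598, 4250, 5709 and 1585 CPM in the intact libraries and at 48.3, 36.5 and 188 CPM at day 10. The groups were fully apart. Its log2 fold change was -5.81 ± 1.19 (SE, adjusted p = 0.0154), and -5.42 without intact libraries 0 and 1 (adjusted p = 0.0423). Leaving out day-10 library 0 or 1 raised the adjusted p to at most 0.114.

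Pmp22, a membrane protein of compact myelin on chromosome 11 from 62942484 to 62973049 (NCBIM37, the Ensembl name of mm9, used for all gene positions given here), was at 17500, 6418, 2093, 8710 and 3502 CPM in intact nerve. At day 10 it was at 556, 437 and 314 CPM, so that it was still readily detected in every library. Its log2 fold change was -4.13 ± 0.702 (adjusted p = 0.00233), and -3.50 without intact libraries 0 and 1 (adjusted p = 0.0131). Of the 3 myelin genes called, Pmp22 alone stayed called when each of the 8 libraries was left out in turn.

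**Figure D3:**
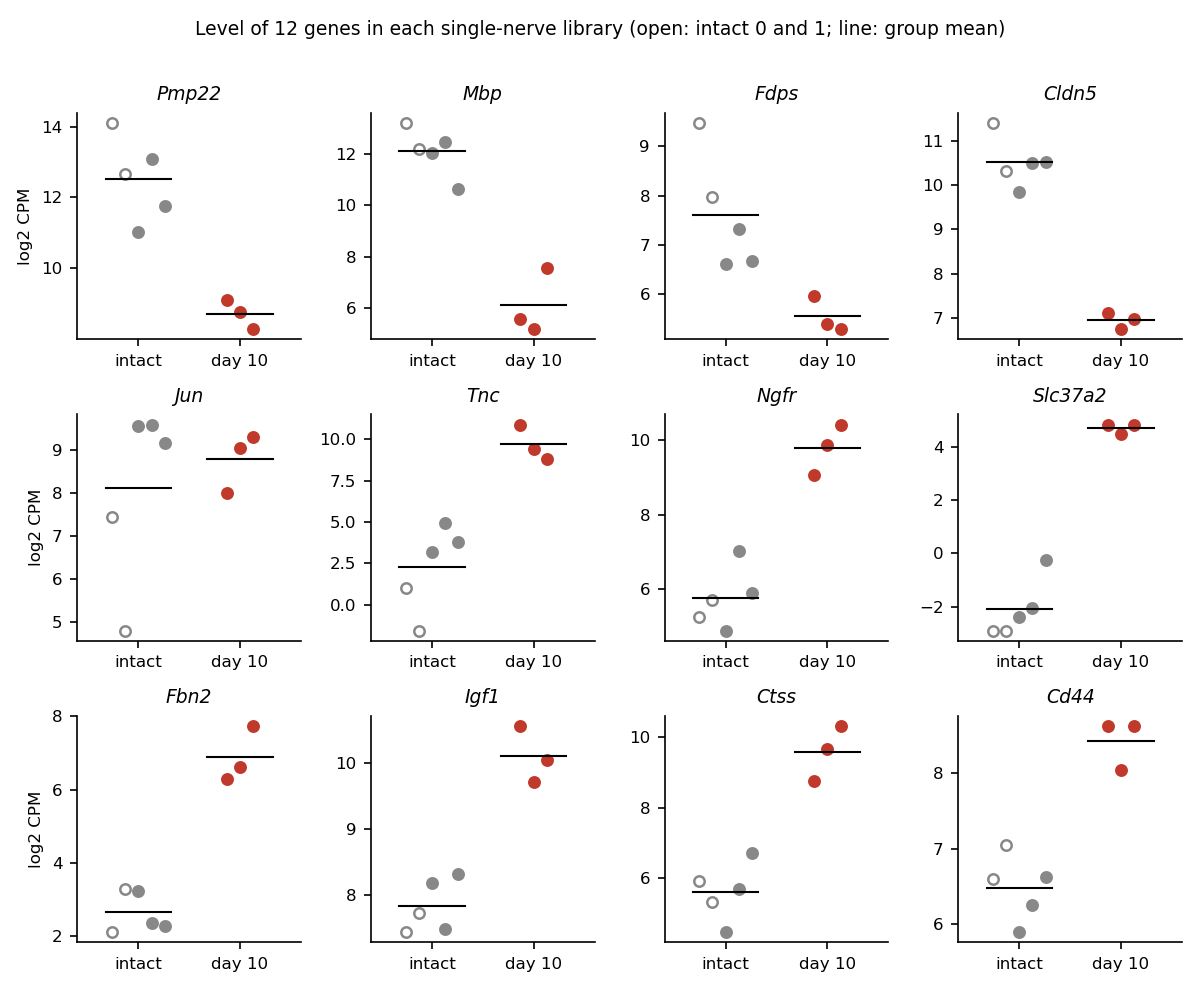
Log2 CPM of 12 genes in each of the 8 libraries, with intact libraries in grey (0 and 1 open), day-10 libraries in red and group means as lines. Pmp22, Mbp, Fdps and Cldn5 are lower in all 3 day-10 libraries than in all 5 intact libraries, Tnc, Ngfr, Slc37a2, Fbn2, Igf1, Ctss and Cd44 are higher, and Jun overlaps.

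Of the 21 listed myelin membrane genes, 10 passed the count limit of the first fit, of which 3 were called lower, 0 were called higher and 9 had a negative fold change. The median was -2.63, against -0.08 for all genes, and -1.79 without intact libraries 0 and 1, when 2 of the 10 were called lower. The other 11 were tested in the broader fit and 0 were called. The count limit of the first fit leaves out genes near 0 in most injured libraries. In the broader fit the median of all 21 was -4.12. Prx, which encodes periaxin, a scaffold of the myelinating SC membrane, was at 191 to 596 CPM in intact nerve and 4.77, 8.46 and 5.98 CPM at day 10, with no overlap but an adjusted p of 0.0843. Mag, the myelin-associated glycoprotein, was at 31.3 to 151 CPM against 5.06, 0 and 2.62 CPM (adjusted p = 0.510). Cdh1, which encodes the E-cadherin of SC autotypic junctions, was at 3.09 to 51.4 CPM against 0, 2.97 and 0 CPM (adjusted p = 0.659). 

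Regulators of myelination showed no called change. Of 15 tested, 0 were called, 9 had positive and 6 negative fold changes, and the median was 0.25. Sox10 was at 20.7 to 110 CPM in intact nerve and 89.3, 88.1 and 57.5 CPM at day 10 (log2 fold change 0.72 ± 0.643, adjusted p = 0.766). Egr2 was at 5.95 to 137 CPM and 63.0, 72.1 and 37.7 CPM (-0.29 ± 0.819, adjusted p = 0.951), and its sign changed without intact library 4. The POU factor Pou3f1 was at 4.34 to 19.3 CPM and 3.34 to 14.4 CPM (-0.40 ± 1.13, adjusted p = 1). Erbb3, the neuregulin receptor of SCs, and the RNA-binding protein gene Qk had the smallest p of this list. Erbb3 was at 2.39 to 51.7 CPM and 29.8 to 73.8 CPM (adjusted p = 0.798), and Qk at 638 to 901 CPM and 323 to 568 CPM (-0.66 ± 0.395, adjusted p = 0.618). S100b, a calcium-binding SC marker, was at 30.9 to 66.9 CPM and 2.10, 16.2 and 47.7 CPM (adjusted p = 0.933).

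Myelin is rich in cholesterol, which SCs make themselves. All 16 tested cholesterol synthesis genes had negative fold changes, with a median of -1.70, and 1 of them, Fdps, was called lower. Leaving out intact libraries 0 and 1 gave a median of -0.998, with which 15 of 16 were negative and 0 were called. Fdps, which encodes farnesyl diphosphate synthase, was at 709, 252, 98.2, 160 and 103 CPM in intact nerve and 62.4, 42.2 and 39.3 CPM at day 10. Intact library 0 was far above the others, although all 5 were above the day-10 libraries. The log2 fold change was -2.46 ± 0.587 (adjusted p = 0.0357) and -1.36 without intact libraries 0 and 1 (adjusted p = 0.398). The call was lost without intact library 0 or 4 or any day-10 library, with adjusted p up to 0.242.

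Sqle, squalene epoxidase, was at 95.5, 0.411, 83.5, 132 and 84.0 CPM in intact nerve and 57.1, 36.4 and 17.6 CPM at day 10 (adjusted p = 0.728), with intact library 1 below all others. Hmgcs1 was listed at 0 in all 35 single-nerve libraries. In fatty acid and sphingolipid synthesis, 0 of 19 genes were called, 15 had negative fold changes, and the median was -0.31. The smallest p were those of Sgms1, sphingomyelin synthase, with -1.69 ± 0.536 (adjusted p = 0.189), and Ugcg, glucosylceramide synthase, with 2.11 ± 0.739 (adjusted p = 0.261).

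Among markers of immature and repair SCs, Tnc and Ngfr rose and Scn7a fell, out of 16 tested. Tnc encodes tenascin-C, a matrix glycoprotein of developing and injured tissue, on chromosome 4 from 63620819 to 63681760. It was at 1.88, 0.205, 8.94, 30.6 and 13.5 CPM in intact nerve and 1891, 676 and 449 CPM at day 10. The lowest day-10 library was more than an order of magnitude above the highest intact library. The log2 fold change was 6.49 ± 0.872 (adjusted p = 6.78e-05), and 5.78 without intact libraries 0 and 1 (adjusted p = 0.000451).

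Ngfr, the p75 neurotrophin receptor of non-myelinating and denervated SCs, was at 38.3, 52.1, 29.6, 131 and 59.7 CPM in intact nerve. At day 10 it was at 529, 936 and 1357 CPM, above every intact library. Its log2 fold change was 3.92 ± 0.786 (adjusted p = 0.0154), and 3.65 without intact libraries 0 and 1 (adjusted p = 0.0959). Leaving out day-10 library 3 gave an adjusted p of 0.0666. Scn7a, a sodium channel gene, was at 1114, 792, 115, 531 and 130 CPM against 125, 65.7 and 74.6 CPM, overlapping, with -2.60 ± 0.638 (adjusted p = 0.0436). Without intact libraries 0 and 1 this was -1.59 (adjusted p = 0.401), and it was not called without 6 of the 8 single libraries, intact 0, 1 and 4 and each day-10 library, with adjusted p up to 0.268.

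Other SC injury markers on the list overlapped between the groups or were not called. Gap43, a growth cone protein gene, was at 0.269 to 21.3 CPM and 52.3, 34.9 and 11.2 CPM (log2 fold change 1.64 ± 0.808, adjusted p = 0.533). The adhesion molecules Ncam1 and L1cam had log2 fold changes of 0.62 ± 1.02 (adjusted p = 0.900) and 1.58 ± 1.08 (adjusted p = 0.678). Gfap, an intermediate filament gene, was at 0 in intact libraries 1 and 5 and in day-10 library 3 (adjusted p = 1). Shh, which encodes the ligand sonic hedgehog, was at 0.411 to 3.09 CPM in intact nerve and 4.30, 55.9 and 44.7 CPM at day 10, with no overlap and an adjusted p of 0.0535. Apod, a lipid-binding apolipoprotein gene, split the day-10 libraries, at 54.5, 22000 and 38450 CPM against 1080 to 3289 CPM in intact nerve (adjusted p = 0.324). Day-10 library 0 was thus below all intact libraries for Apod while the other 2 were above them.

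The transcription factors of the repair program were mostly not called, with 0 of 20 in the first fit and Runx2 in the broader one. Jun was at 176, 27.9, 753, 774 and 576 CPM in intact nerve and 257, 531 and 637 CPM at day 10 (log2 fold change 0.04 ± 0.724, adjusted p = 0.994). The 2 lowest libraries for Jun were intact 0 and 1, and without them the fold change was -0.58 (adjusted p = 1.00). Runx2, a runt-domain factor, was at 0, 0, 0, 3.77 and 0.299 CPM in intact nerve and 15.5, 33.5 and 105 CPM at day 10. Every day-10 library was above every intact library, and the log2 fold change was 5.91 ± 1.22 (adjusted p = 0.0234). It was not called without intact library 0, 1 or 5 or day-10 library 3, with adjusted p up to 0.151, or without intact libraries 0 and 1 together (adjusted p = 0.124).

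Atf3, a stress-induced factor, was at 4.21 to 78.4 CPM and 17.9, 128 and 387 CPM (adjusted p = 0.533). Sox2, which marks immature SCs, was at 0 to 11.4 CPM and 2.10, 10.8 and 14.9 CPM (adjusted p = 0.892). Olig1 had 1 read in intact nerve, in library 4, and was at 0, 11.7 and 7.63 CPM at day 10 (adjusted p = 0.278). These 3 factors overlapped between the groups.

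Trophic factors and receptors held 2 called genes of 14 tested, both higher, and Btc from the broader fit, with 12 of 14 fold changes positive and a median of 0.28. Igf1, insulin-like growth factor 1, was at 174, 213, 291, 180 and 321 CPM in intact nerve and 1509, 844 and 1063 CPM at day 10. The groups did not overlap, with the lowest day-10 library above the highest intact library. The log2 fold change was 2.27 ± 0.342 (adjusted p = 0.000437), and 2.08 without intact libraries 0 and 1 (adjusted p = 0.0131). Gfra1, the co-receptor of the ligand Gdnf, was at 19.1 to 50.0 CPM in intact nerve and 90.0, 273 and 325 CPM at day 10 (2.72 ± 0.623, adjusted p = 0.0282, and 0.224 without intact libraries 0 and 1). It was not called without intact library 0, 1 or 4 or day-10 library 1 or 3, with adjusted p up to 0.172. Btc, the EGF-family ligand betacellulin, was at 0 to 8.21 CPM and 29.8, 42.7 and 136 CPM (4.32 ± 1.01, adjusted p = 0.0491, and 0.0645 without intact libraries 0 and 1) and was not called without 7 of the 8 single libraries, day-10 library 3 (adjusted p = 0.371) among them and intact 3 not.

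The neurotrophic factors known from denervated nerve had few reads. Gdnf was at 0, 0, 0, 2.72 and 0.0998 CPM in intact nerve and 4.01, 9.20 and 28.9 CPM at day 10, with no overlap (adjusted p = 0.398). Bdnf had 1 read in intact nerve, in library 5, and was at 2.96, 14.0 and 5.06 CPM at day 10 (adjusted p = 0.109). Both were higher in all 3 day-10 libraries than in all intact libraries without passing the test. Artn overlapped, at 0 to 5.34 CPM in intact nerve and 0 to 7.94 CPM at day 10 (adjusted p = 1). Cntf was listed at 0 in all 8 libraries.

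Genes of the cell cycle had positive fold changes without calls in the first fit. Of 15 DNA replication genes 13 were positive, with a median of 1.53 (1.24 without intact libraries 0 and 1), and of 11 mitosis genes all were positive, with a median of 1.81 (1.66 without these libraries). The counts of calls were 0 and 0, with 6 genes of each list higher at an unadjusted p under 0.05. Mcm5, part of the replicative helicase, was at 0.135, 0, 12.7, 13.6 and 10.0 CPM in intact nerve and 102, 40.2 and 29.5 CPM at day 10 (2.95 ± 0.889, adjusted p = 0.147). Tk1, thymidine kinase, was at 0 to 11.5 CPM and 21.7 to 45.2 CPM in the broader fit (3.48 ± 1.051, adjusted p = 0.196). Both were above all intact libraries in every day-10 library.

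Bub1, a kinase of the spindle checkpoint, was the mitosis gene called in the broader fit (adjusted p = 0.0377, and 0.210 without intact libraries 0 and 1). It had 1 read in intact nerve, in library 4, and was at 24.2, 0 and 15.3 CPM at day 10, so that day-10 library 1 was not above the intact libraries, and it was not called without 7 of the 8 single libraries, all but day-10 library 1. Intact library 3 was high for 2 proliferation genes. Top2a, topoisomerase 2, was at 3.497, 0, 71.3, 9.27 and 9.63 CPM in intact nerve and 161, 16.5 and 63.0 CPM at day 10 (2.09 ± 0.890, adjusted p = 0.411), and without intact library 3 its adjusted p was 0.0283. Mki67, which encodes Ki-67, was at 0, 0, 55.1, 1.57 and 0.150 CPM and 53.8, 30.9 and 21.4 CPM (1.74 ± 1.28, adjusted p = 0.792), and 0.0253 was its adjusted p without that library.

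Among 9 D-type cyclins and CDK inhibitors 0 were called. Ccnd1, which encodes cyclin D1, was at 137 to 270 CPM in intact nerve and 414, 289 and 682 CPM at day 10, with no overlap (1.25 ± 0.348, adjusted p = 0.102). The inhibitor Cdkn1a was at 50.3 to 381 CPM and 18.9 to 196 CPM (-1.08 ± 0.688, adjusted p = 0.636). Cdkn1b, p27, had -2.57 ± 1.15 in the broader fit (adjusted p = 0.535).

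Of 34 tested genes of the basement membrane and matrix, 4 rose, 0 fell and 29 had positive fold changes, with a median of 0.82, or 0.38 with 1 call, Tnc, when intact libraries 0 and 1 were left out. Besides Tnc, these were Thbs2, Vcan and Fn1. Fn1, fibronectin, was at 267, 340, 1006, 614 and 733 CPM in intact nerve and 2067, 1664 and 2584 CPM at day 10 (1.83 ± 0.441, adjusted p = 0.0393). Its 2 lowest intact libraries were 0 and 1, and without both the log2 fold change was 1.41 (adjusted p = 0.335). Leaving out any single library but intact 3 also lost the call, with adjusted p up to 0.231.

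Thbs2, thrombospondin 2, was at 48.4 to 363 CPM and 1557, 923 and 537 CPM (2.41 ± 0.502, adjusted p = 0.0159, and 0.101 without intact libraries 0 and 1), and was not called without day-10 library 0 or 1, with adjusted p up to 0.174. Vcan, the proteoglycan versican, was at 32.6 to 63.5 CPM and 192, 105 and 197 CPM (1.89 ± 0.397, adjusted p = 0.0166, and 0.0861 without intact libraries 0 and 1). For Vcan, leaving out intact 4 or day-10 library 0 or 3 gave an adjusted p of up to 0.102. Both genes were higher in all day-10 libraries than in all intact libraries. Lamb2, a laminin chain of the SC basement membrane, was at 62.4, 58.3, 645, 452 and 265 CPM and 158, 281 and 172 CPM (-0.54 ± 0.659, adjusted p = 0.846). The fibrillar collagen gene Col1a1 was at 152 and 351 CPM in intact libraries 0 and 1, at 2050 to 4361 CPM in the other intact libraries and at 13740, 5374 and 4291 CPM at day 10 (1.84 ± 0.778, adjusted p = 0.409).

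Fbn2 encodes fibrillin 2, a microfibril protein of embryonic and remodelling matrix. It was at 4.17, 9.65, 9.17, 5.03 and 4.74 CPM in intact nerve, a narrow range. At day 10 it was at 78.6, 97.8 and 212 CPM, and the log2 fold change was 4.31 ± 0.538 (adjusted p = 2.29e-05). Without intact libraries 0 and 1 it was 4.35 (adjusted p = 0.000725).

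Of 15 matrix receptors, 1 was called. Cd44, the hyaluronan receptor, was at 96.8, 132, 59.1, 76.1 and 98.4 CPM in intact nerve and 395, 264 and 394 CPM at day 10 (1.93 ± 0.354, adjusted p = 0.00605, and 0.0144 without intact libraries 0 and 1). All day-10 libraries were above all intact ones. Of 17 proteases and inhibitors 1 was called, with 14 positive fold changes and a median of 1.16. Serpine2, the inhibitor protease nexin 1, was at 133 to 400 CPM and 810, 1306 and 1258 CPM (2.12 ± 0.458, adjusted p = 0.0211, and 0.156 without intact libraries 0 and 1), and was not called without any intact library but 5 or without day-10 library 1 or 3, with adjusted p up to 0.0947. Mmp2, gelatinase A, was at 116 to 667 CPM and 862, 1436 and 1255 CPM, with no overlap (1.54 ± 0.484, adjusted p = 0.184).

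**Figure D4:**
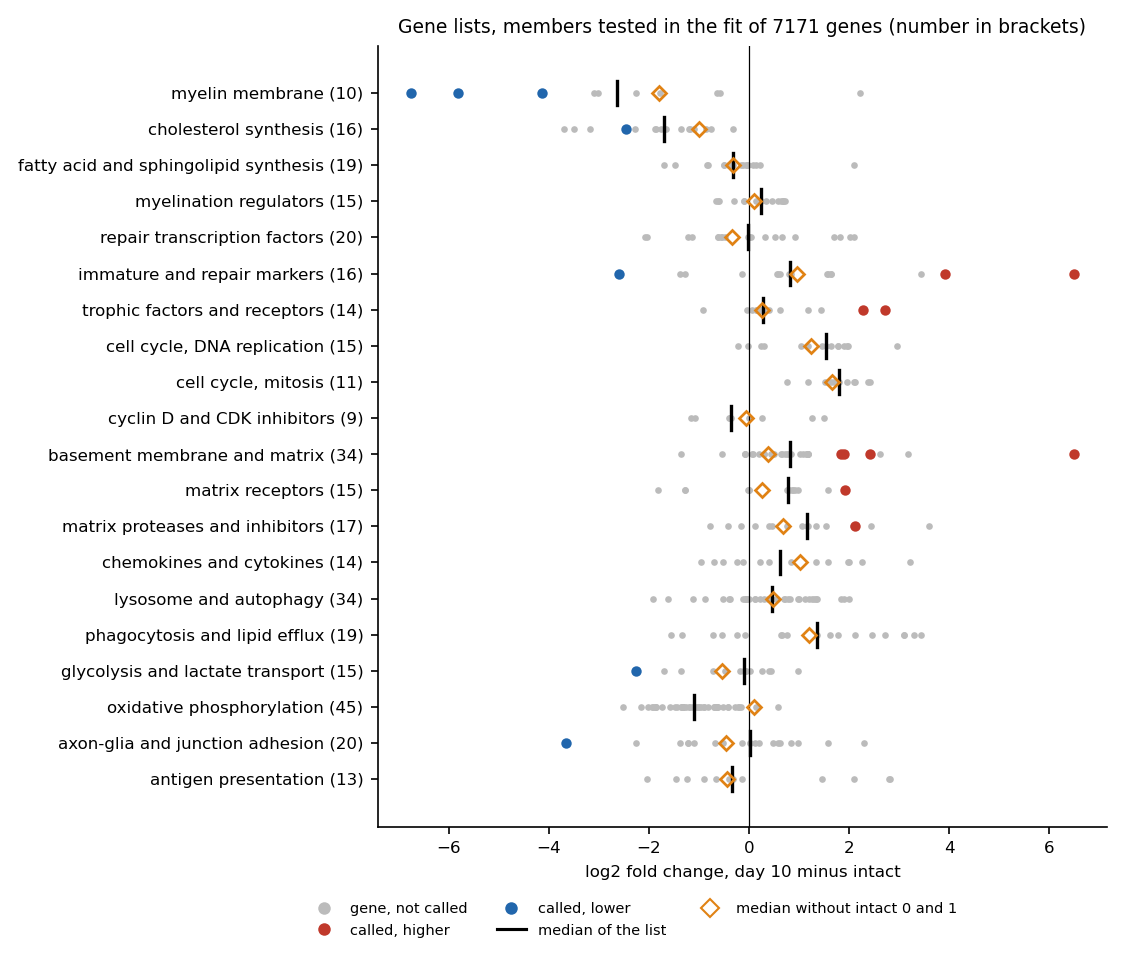
Log2 fold change, day 10 minus intact (horizontal), of the genes of each of 20 lists tested in the fit of 7171 genes, with called genes in red (higher) and blue (lower), list medians as black bars and medians without intact libraries 0 and 1 as open orange diamonds. The myelin median moves from -2.63 to -1.79 and the oxidative phosphorylation median from -1.10 to 0.09.

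Of 13 macrophage markers tested in the first fit, 4 were called higher, Lyz2, Csf1r, Emr1 and C1qb, and all 13 fold changes were positive, with a median of 2.23 (2.73 without intact libraries 0 and 1). Itgam was called in the broader fit. Lyz2, lysozyme, was at 147, 98.7, 141, 181 and 650 CPM in intact nerve and 1791, 4258 and 4644 CPM at day 10. It was above every intact library in all 3, by a log2 fold change of 3.87 ± 0.666 (adjusted p = 0.00246), and by 3.44 without intact libraries 0 and 1 (adjusted p = 0.0423). Csf1r, the receptor of macrophage colony-stimulating factor, was at 12.3 to 69.3 CPM and 391, 255 and 160 CPM (2.898 ± 0.726, adjusted p = 0.0494), and was not called without any single library but intact 5, with adjusted p up to 0.265.

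Emr1, the F4/80 antigen, was at 0 to 20.4 CPM and 168, 92.0 and 78.1 CPM (3.21 ± 0.760, adjusted p = 0.0332), a call lost without intact 0 or 4 or any day-10 library, with adjusted p up to 0.200. C1qb, of the complement component C1q, was at 22.5 to 202 CPM and 380, 871 and 698 CPM (2.78 ± 0.579, adjusted p = 0.0159), and was not called without day-10 library 1 or 3, with adjusted p up to 0.0839. Itgam, integrin alpha M, was at 0 to 3.99 CPM and 44.0, 61.4 and 34.2 CPM (5.32 ± 1.08, adjusted p = 0.0222), and was not called without intact 0 or 4 or day-10 library 1 or 3, with adjusted p up to 0.0626. Without intact libraries 0 and 1 together, the adjusted p was 0.342 for Csf1r, 0.0861 for Emr1, 0.0221 for C1qb and 0.112 for Itgam. The part of macrophages in the sorted cells in these differences was not tested.

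Slc37a2, a sugar-phosphate transporter gene on chromosome 9 from 37036734 to 37063323, had the largest increase. It was at 0, 0, 0.0577, 0.105 and 0.698 CPM in intact nerve, at most 14 reads in a library, and at 28.0, 22.3 and 28.4 CPM at day 10. All intact libraries were under the limit of 100 counts, so Slc37a2 entered the first fit only through libraries of injured nerve. Its direction is therefore not separate from the filter. The day-10 libraries agreed closely, and the log2 fold change was 6.90 ± 0.819 (adjusted p = 1.58e-05), or 6.42 without intact libraries 0 and 1 (adjusted p = 0.000451). Ctss, the lysosomal protease cathepsin S, was at 59.2, 39.4, 21.6, 50.5 and 103 CPM in intact nerve and 429, 807 and 1280 CPM at day 10. Its groups were apart, with a log2 fold change of 3.94 ± 0.615 (adjusted p = 0.000684), and 3.82 without intact libraries 0 and 1 (adjusted p = 0.0185).

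Myo1f, a myosin of leukocytes, was at 0 to 4.66 CPM and 62.5, 27.8 and 30.6 CPM (4.69 ± 0.946, adjusted p = 0.0154). With at most 89 reads in an intact library, Myo1f, like Slc37a2, entered the first fit only through libraries of injured nerve. Mpeg1, perforin-2, was at 0 to 26.9 CPM and 191, 363 and 330 CPM (4.28 ± 0.892, adjusted p = 0.0159). Fyb, an adaptor protein gene, was at 0 to 9.13 CPM and 36.8, 89.8 and 175 CPM (4.22 ± 0.938, adjusted p = 0.0236). Ms4a7 was at 0.0577 to 27.7 CPM and 65.8, 239 and 91.5 CPM (4.02 ± 0.888, adjusted p = 0.0228). Cybb, the catalytic subunit of the phagocyte NADPH oxidase, was at 0 to 27.5 CPM and 153, 169 and 147 CPM (3.76 ± 0.874, adjusted p = 0.0287). For these 5 genes the day-10 libraries were above all intact libraries. Without intact libraries 0 and 1 together, Mpeg1 (adjusted p = 0.0464) and Ms4a7 (0.0182) were called and Myo1f (0.0516), Fyb (0.0861) and Cybb (0.0582) were not. Each of the 5 lost its call without at least 1 single library. For Myo1f this was day-10 library 0, for Mpeg1, Fyb and Ms4a7 intact 4 or day-10 library 1 or 3, and for Cybb intact 1, 3 or 4 or any day-10 library, with adjusted p up to 0.169 among the 5.

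Trf, which encodes the iron carrier transferrin, was at 103, 13.1, 141, 185 and 244 CPM in intact nerve and 344, 4435 and 5528 CPM at day 10 (4.64 ± 1.13, adjusted p = 0.0405). Day-10 library 0 was much closer to the intact libraries than the other 2 were. The call was lost without any single library but day-10 library 0, with adjusted p up to 0.176, and without intact libraries 0 and 1 together (adjusted p = 0.249).

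Chemokines and cytokines held 0 calls in the first fit, with 9 of 14 fold changes positive and a median of 0.62. Cxcl5, a neutrophil attractant, was called in the broader fit (adjusted p = 0.0304, and 0.167 without intact libraries 0 and 1). It had 1 read in intact nerve, in library 4, and was at 0, 16.8 and 45.4 CPM at day 10, and the call held only without day-10 library 0 among the 8 single omissions. Ccl2, the monocyte attractant made by denervated SCs, was at 15.0 to 135 CPM in intact nerve and 4.96, 186 and 656 CPM at day 10 (2.00 ± 1.01, adjusted p = 0.542). Both were low in day-10 library 0, which also had the lowest macrophage marker sum of the 3.

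Lysosome and autophagy genes, with 23 of 34 fold changes positive and a median of 0.45, and genes of phagocytosis and lipid efflux, with 13 of 19 positive and a median of 1.37, held 0 calls each. At an unadjusted p under 0.05, 10 genes of each list were higher. Ctsb, cathepsin B, was at 803 to 2308 CPM and 3118, 5173 and 8116 CPM (1.89 ± 0.509, adjusted p = 0.0854). Lipa, lysosomal acid lipase, was at 49.3 to 168 CPM and 246 to 327 CPM (1.31 ± 0.381, adjusted p = 0.133). For both, no day-10 library overlapped the intact range.

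The lipid exporters Abca1 and Abcg1 and the bridging protein gene Pros1 were likewise above all intact libraries without passing the test. Abca1 was at 0 to 123 CPM and 148, 256 and 436 CPM (2.72 ± 0.944, adjusted p = 0.250). Abcg1 was at 0.411 to 87.3 CPM and 215, 258 and 373 CPM (2.46 ± 0.746, adjusted p = 0.149). Pros1 was at 138 to 535 CPM and 639, 677 and 1030 CPM (1.37 ± 0.370, adjusted p = 0.0867). Apoe, the main apolipoprotein of injured nerve, was at 863 to 3570 CPM and 2351, 11100 and 9373 CPM, with day-10 library 0 inside the intact range (2.11 ± 0.665, adjusted p = 0.184). The list had 1 call when intact libraries 0 and 1 were left out, Trem2, a lipid receptor of myeloid cells, with 4.93 (adjusted p = 0.0236).

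In antigen presentation 0 of 13 genes were called and 9 had negative fold changes. Cd74, the invariant chain, was at 49.0, 27.9, 179, 61.1 and 989 CPM in intact nerve and 1455, 2612 and 1418 CPM at day 10 (2.81 ± 0.760, adjusted p = 0.0873). Intact library 5 was closest to the day-10 libraries, and without it the adjusted p of Cd74 was 0.000337.

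Genes of energy metabolism gave 1 call, the glucose transporter Slc2a1, among 15 genes of glycolysis and lactate transport. It was at 1288, 556, 1363, 720 and 495 CPM in intact nerve and 54.7, 221 and 278 CPM at day 10 (-2.26 ± 0.556, adjusted p = 0.0436). All day-10 libraries were below all intact ones. Leaving out intact 0, 3 or 4 or any day-10 library lost the call, with adjusted p up to 0.339, and so did leaving out intact libraries 0 and 1 together (adjusted p = 0.0959).

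Oxidative phosphorylation showed the strongest dependence on intact libraries 0 and 1. With them, 43 of 45 genes had negative fold changes, with a median of -1.10 and 0 calls. Without them, the median was 0.09, with 26 positive and 19 negative. Atp5c1, a subunit of ATP synthase, was at 1549 and 1726 CPM in intact libraries 0 and 1, at 187 to 247 CPM in the other 3 and at 240 to 282 CPM at day 10. Its log2 fold change of -1.57 ± 0.665 (adjusted p = 0.409) became 0.29 without the 2 libraries. Uqcrfs1, the Rieske protein of complex III, was at 576 and 276 CPM in these libraries, 73.3 to 97.7 CPM in the other intact ones and 74.3 to 107 CPM at day 10 (-1.36 ± 0.624, adjusted p = 0.480, and -0.03 without them).

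The remaining genes with the largest decreases were Cldn5, Ndrg2, Ephx1, Ndrg1 and Rnf167. Cldn5, a tight junction protein of endothelium and the 1 called gene among 20 of axon-glia and junction adhesion, was at 2693, 1274, 922, 1440 and 1481 CPM in intact nerve. At day 10 it was at 138, 108 and 127 CPM, so the groups were far apart (-3.65 ± 0.849, adjusted p = 0.0287). It is also the 1 endothelial marker called. The endothelial marker sums given above overlap between the groups and include Cldn5, so they are not separate from its decrease. Cldn5 made up 2693 of 3337 and 1274 of 1920 CPM in intact libraries 0 and 1. In intact libraries 3, 4 and 5 it made up 922 of 5881, 1440 of 4107 and 1481 of 4774 CPM. In day-10 libraries 0, 1 and 3 it made up 138 of 2495, 108 of 905 and 127 of 957 CPM. The part of endothelial cells in the decrease of Cldn5 was not tested. The call was lost without intact 0 or 4 or any day-10 library, with adjusted p up to 0.197, and without intact libraries 0 and 1 together (adjusted p = 0.0866).

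Ndrg2 was at 362 to 773 CPM in intact nerve and 126, 140 and 98.5 CPM at day 10 (-2.20 ± 0.469, adjusted p = 0.0186). Its relative Ndrg1, mutated in a demyelinating neuropathy, was at 532 to 1967 CPM and 403, 291 and 287 CPM (-1.91 ± 0.473, adjusted p = 0.0465). Ephx1, microsomal epoxide hydrolase, was at 171 to 361 CPM and 37.1, 60.5 and 75.6 CPM (-2.04 ± 0.455, adjusted p = 0.0236). Rnf167, a ubiquitin ligase gene, was at 192 to 307 CPM and 72.7, 80.4 and 51.7 CPM (-1.79 ± 0.392, adjusted p = 0.0217). No day-10 library reached the intact range for any of these 4. Leaving out both intact libraries 0 and 1 gave an adjusted p of 0.0359 for Ndrg2, 0.0248 for Ephx1, 0.164 for Ndrg1 and 0.0861 for Rnf167. Each was also lost without any single day-10 library, Ephx1 in addition without intact 3 or 4 and Ndrg1 without any intact library but 5, with adjusted p up to 0.276.

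Set beside the earlier distal libraries, day 10 gave no call against day 6, which does not show that the days are alike. In that comparison 0 of 7171 genes were called by edgeR, with 103 at an unadjusted p under 0.05, and 0 by DESeq2 and by limma voom. Leaving out day-6 library 3 gave 1 call. Against day 1, 1 gene was called (0.0139% of genes tested), Fbn2, with 325 at an unadjusted p under 0.05, whereas DESeq2 called 32 and limma voom 122. Fbn2 was at 0.798 to 16.1 CPM at day 1 and 78.6 to 212 CPM at day 10, a log2 difference of 4.03 ± 0.652 (adjusted p = 0.00633). The call was lost without day-1 library 1, and leaving out day-10 library 3 gave 2 calls. These comparisons use the same 3 day-10 libraries as the comparison with intact nerve.

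The genes that separated day 10 from intact nerve had different courses over the days between. Slc37a2 was at 0 to 0.698 CPM in intact nerve and already at 19.2 to 84.2 CPM at day 1, and its mean was 71.6 CPM at day 6 and 26.2 CPM at day 10. Lyz2 had a mean of 2728 CPM at day 1, 7346 CPM at day 4 and 3564 CPM at day 10. Fbn2, in contrast, was in the intact range or close to it at day 1 and had means of 47.2 CPM at day 2, 210 CPM at day 4 and 130 CPM at day 10.

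Tnc had means of 58.9 CPM at day 1, 482 CPM at day 4 and 1005 CPM at day 10, and Ngfr of 97.8, 633 and 941 CPM at the same days. Igf1 had means of 236 CPM in intact nerve, 360 CPM at day 1, 581 CPM at day 4 and 1138 CPM at day 10. Among myelin genes, Pmp22 had means of 7645 CPM in intact nerve, 4388 CPM at day 1, 1249 CPM at day 2 and 340 CPM at day 4, and Mbp of 5111, 2204, 1611 and 163.5 CPM. The order of these means between days 4 and 10 was not tested apart from day 6 against day 10.

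**Figure D5:**
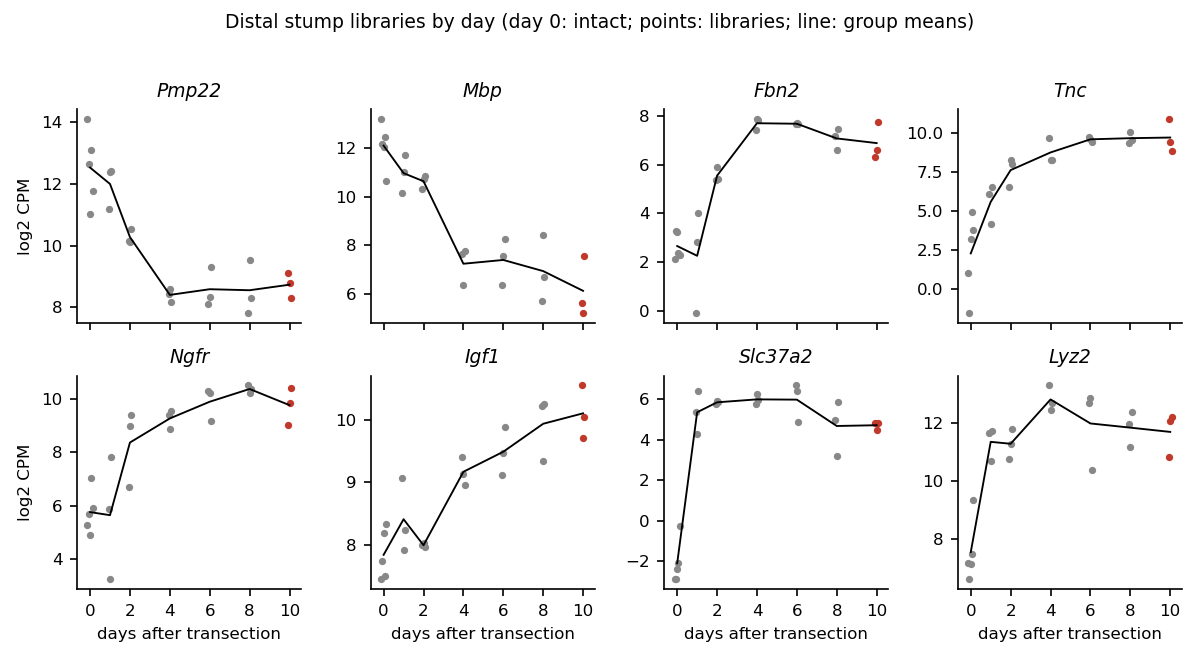
Log2 CPM of 8 genes in intact libraries (day 0) and in distal stump libraries at 6 time points from day 1 to day 10 after transection, with points for libraries, day 10 in red and lines through group means. Slc37a2 and Lyz2 are above the intact libraries at day 1, whereas Fbn2 and Ngfr overlap them at day 1, and the myelin genes Pmp22 and Mbp reach their low levels by day 4.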

How the data were processed

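Single-nerve libraries were made by the authors with Smart-seq2 from tdTomato-sorted cells. According to the study's methods and the submitters' processing notes, reads were aligned with TopHat2 2.0.11 to mm9 and counted with HTSeq, and the raw count of each gene was deposited by the authors, without normalization. The counts list 24016 genes and 92 ERCC spike-ins. HTSeq's own categories and spike-ins were left out. Reads amplified by PCR without molecular identifiers are not independent molecules, and no strand was used to tell overlapping genes apart.

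The main test was edgeR 4.0.16 (R 4.3.3), quasi-likelihood, with TMM factors, a fit of 11 group means over 35 libraries (24 residual degrees of freedom) and Benjamini-Hochberg adjustment at 0.05, on genes with at least 100 counts in at least 85% of libraries, the study's filter. The broader fit used filterByExpr. SE is the log2 fold change divided by the root of the F statistic. All 5 deposited intact libraries were used, each with at least 10042 detected genes, whereas the study, which removed libraries with few detected genes, kept fewer intact nerves. Which one it left out is not given in the sources used here. By the animal identifiers of the labels the 8 libraries come from different animals, but the mouse numbers of the source names recur between groups and the names of deposited data pair some intact nerves with day-2 nerves, so shared animals cannot be told apart from separate ones by all sources.

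Lists, tests and the rule for named genes were chosen with earlier results of these data known. Named were the 12 largest increases and decreases among called genes whose groups did not overlap (10 decreases exist), called list members or the 2 with the smallest p, and 43 fixed genes. Of these 43 genes 7 were called, 34 were tested without a call and 2 had no test. Genes chosen after their values were seen are named in the closing section, in addition to Trem2 and the genes of the broader fit listed by name. Alternatives used DESeq2 1.42.0 and limma 3.58.1. The planned test of the ratio of spike-in to gene counts was not run, because spike-in counts were 0 in 2 of 3 day-10 libraries (12 in the other) and in 3 of 5 intact libraries (at most 71). Some genes that the rule names are not reported here, although counts and sums over lists include them. Code was tested on simulated data with known changes.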

Additional observations from a re-analysis of the deposited data

Results flagged for a closer look

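Dixon's test was applied to the 5 intact libraries for 112 values. It divides the distance of the extreme library from its nearest neighbour by the whole range and takes the ratio past its 95% critical value. For genes the ratio was computed on log2 CPM, whereas the levels printed beside it are CPM. Chance flags about 1 in 20 groups, and 12 were flagged. Intact library 1 was lowest for Sqle (0.411 CPM against 83.5 to 132 CPM, ratio 0.917), Abcg1 (0.411 against 37.1 to 87.3 CPM, 0.832), Emr1 (0 against 6.73 to 20.4 CPM, 0.782) and Emb (7.60 against 29.6 to 51.4 CPM, 0.711). Intact library 0 was lowest for Mpeg1 (0 against 11.9 to 26.9 CPM, 0.848), Fyb (0 against 4.72 to 9.13 CPM, 0.848) and Rgs2 (4.04 against 16.9 to 28.6 CPM, 0.728). Intact library 4 was highest for Gdnf (2.72 against 0 to 0.0998 CPM, 0.818). Olig1, Bub1 and Cxcl5 had their only intact read in library 4 and Bdnf in library 5, each with a ratio of 1. The ratio is always 1 when a single library has reads and the others are at 0. The flags of Olig1, Bub1, Cxcl5 and Bdnf were thus fixed by a single read and cannot be set against the chance rate.

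The effect of transection on Fbn2 differed between day 10 and day 1 by 4.03 on the log2 scale (edgeR, adjusted p = 0.00633), with all 3 day-10 libraries above all 3 day-1 libraries.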

How the results depend on the processing

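All 57 called genes kept their sign in 18 alternatives, and 0 were called in all 18. The number of calls at day 10 against intact nerve was 169 with DESeq2, 508 with limma voom, 37 with intact and distal libraries only, 0 with the 8 libraries alone and 24 without intact libraries 0 and 1 (chosen after seeing the data), and 14 to 60 when single libraries were left out, lowest without day-10 library 1 or 3. With the replicate number as a block it was 87, of which 46 were among the 57. Same-numbered intact and day-10 libraries had correlations of -0.12, 0.23 and -0.27 of their deviations from the group means and carry different animal identifiers. Pairs with another number had correlations from -0.34 to 0.42. These few values cannot decide whether the numbers pair the samples. In the broader fit (55 calls) the counts were 446 with DESeq2, 99 with the replicate block, 17 without intact libraries 0 and 1 and 12 to 64 with single libraries left out. Against day 6 the count was 0 to 1 with single libraries left out, and against day 1 it was 2 with DESeq2's size factors, 32 with DESeq2, 122 with limma voom, 0 with either restricted set of libraries and 0 to 2 with single libraries left out. The cause of these differences was not tested.

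Among genes without a call, signs reversed as follows. With the replicate block, log2 fold changes were 0.39 for Egr2 and 0.29 for Lamb2. With limma voom they were -0.34 for Jun, -1.11 for Ncam1, 0.24 for Atp5c1 and 0.11 for Uqcrfs1. Leaving out intact libraries 0 and 1 gave -0.58 for Jun and 0.29 for Atp5c1, and leaving out the 3 libraries with under 11000 genes gave -0.55 for Jun, 0.33 for Atp5c1 and 0.0078 for Uqcrfs1. With single libraries left out, the ranges were -0.62 to 0.065 for Egr2, -0.27 to 0.33 for Jun, -0.052 to 1.99 for Gfap, -0.76 to 1.55 for Ncam1 and -0.62 to 1.96 for Artn. The alternatives for spike-in counts were not run. Low counts limit Bdnf, Olig1, Bub1 and Cxcl5, each with 1 intact read.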

Other observations

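Of the 57 called genes, 37 were in no list, and those not yet described were chosen here after their values were seen. Several code for matrix proteins or surface proteoglycans. Cthrc1, a secreted collagen triple helix protein, was at 25.8 to 200 CPM in intact nerve and 438, 518 and 864 CPM at day 10 (log2 fold change 3.10 ± 0.654, adjusted p = 0.0166). Mfap2, a microfibril protein, was at 64.2 to 136 CPM and 285, 422 and 381 CPM (1.89 ± 0.361, adjusted p = 0.0102). Gpc1, glypican 1, was at 12.3 to 40.1 CPM and 126, 182 and 257 CPM (2.91 ± 0.674, adjusted p = 0.0287), and Col8a1, a short-chain collagen, at 90.8 to 513 CPM and 692, 720 and 954 CPM (1.89 ± 0.428, adjusted p = 0.0271). These 4 were above all intact libraries at day 10. Ptx3, a secreted pentraxin, was at 0.135 to 14.2 CPM and 14.0, 122 and 195 CPM, with overlap (4.31 ± 0.981, adjusted p = 0.0279). Leaving out intact libraries 0 and 1 gave an adjusted p of 0.00848 for Cthrc1, 0.0359 for Mfap2, 0.203 for Gpc1, 0.205 for Col8a1 and 0.0516 for Ptx3. Leaving out single libraries lost the call of Mfap2 without day-10 library 1, of Cthrc1 and Ptx3 without intact 4 or day-10 library 1 or 3, and of Gpc1 and Col8a1 without any but intact 3, with adjusted p up to 0.172.

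H19, an imprinted long non-coding RNA of embryonic tissue, was at 42.8, 18.9, 51.4, 45.8 and 25.2 CPM in intact nerve and 170, 170 and 342 CPM at day 10, above every intact library (2.62 ± 0.527, adjusted p = 0.0154, 0.103 without day-10 library 3 and 0.0801 without intact libraries 0 and 1). Mest, also imprinted, was at 83.1, 261, 71.0, 77.2 and 44.0 CPM and 3642, 479 and 127 CPM, with overlap (3.72 ± 0.808, adjusted p = 0.0212). Day-10 library 0 carried the Mest difference, as the adjusted p was 0.839 without it 0.0553 without intact library 4 and 0.0395 without intact libraries 0 and 1. Copg2 lies on the opposite strand on chromosome 6 and overlaps Mest by 904 bases, so reads of the 2 genes cannot be told apart there. It was at 39.8 to 102 CPM and 1583, 227 and 79.2 CPM (3.11 ± 0.633, adjusted p = 0.0154, 0.902 without day-10 library 0 and 0.0567 without intact libraries 0 and 1).

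The other called genes outside the lists were Tenm3, Dclk1, Emb, Pld3, Gusb, Npl, Kcnn4, Fermt3, H2afx, Tubb6, Cd276, Serinc5, Chsy1, Rgs2 and Pdia6, all higher at day 10 with log2 fold changes from 1.24 (Pdia6) to 3.53 (Npl), and Aif1l, which was lower (-3.26 ± 0.789, adjusted p = 0.0404). Each of these 16 genes lost its call without at least 2 of the 8 single libraries, with adjusted p up to 0.676 for H2afx without 1 library. With intact libraries 0 and 1 left out, Tenm3 and Dclk1 were called (adjusted p = 0.0280 and 0.0302) and the other 14 were not, with adjusted p from 0.0567 for Npl to 0.398 for Aif1l. Without intact libraries 0 and 1, 5 genes were called that the fit of all libraries did not call, Trem2, C3ar1, Gm1821, Marcksl1 and Oaf, all higher at day 10. C3ar1, the receptor of complement fragment C3a, was at 72.0 and 79.7 CPM in intact libraries 0 and 1, 3.92 to 10.99 CPM in the other 3 and 125 to 170 CPM at day 10.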
